A study of Homo sapiens with 6 samples.

Results

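Small nucleolar RNA (snoRNA) host genes that encode no protein were examined in C4-2 cells under androgen. The 10 genes GAS5, SNHG1, SNHG3, SNHG5, SNHG6, SNHG7, SNHG8, SNHG12, SNHG15 and ZFAS1 were taken by symbol from the 55765 gene symbols of the count files, and all 10 had a row. The rule that lists them uses no measured value, but the list was drawn up with earlier results of these data known. C4-2 is a castration-resistant subline of the human prostate cancer line LNCaP. RNA-seq covered 6 libraries of total RNA from cells grown in DMEM with fetal bovine serum, namely 3 treated for 72 h with the solvent DMSO and 3 treated for 72 h with 1 nM R1881, a synthetic androgen, at what the study calls a supraphysiological androgen level (SAL). The libraries carry the replicate numbers 1 to 3 in each group. The study describes them as a triplicate of 1 cell line, sequenced 3 times independently. The test paired libraries of the same number, so the p-values rest on the differences within these pairs. Each gene's variance was moderated over all genes tested, so a p-value does not measure that gene's own spread alone. The comparison asks which transcripts changed under SAL.

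snoRNAs are short nucleolar RNAs that guide chemical modification of ribosomal RNA. Those of the C/D box class guide 2′-O-methylation, those of the H/ACA class guide pseudouridylation, and a few take part in cleavage of the rRNA precursor instead. In human cells most of them are cut out of the introns of a host gene, so the host transcript and its snoRNAs start from the same promoter. Many hosts encode ribosomal proteins or translation factors, whereas the hosts described here yield a spliced noncoding RNA whose short reading frames make it a substrate of nonsense-mediated decay in the cytoplasm. Several of these transcripts, GAS5 among them, begin with a 5′ terminal oligopyrimidine (TOP) tract, the feature they share with ribosomal protein mRNAs. GAS5 was named for its accumulation in growth-arrested cells, and its RNA has been described as a decoy that binds steroid receptors.

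The sequences around the annotated starts are shown because a TOP tract and its promoter lie there. RefSeq promoters (GRCh38.p14) were matched by symbol for 8 of the 10 genes, all but SNHG6 and SNHG15. Each line gives 40 bases before and 50 bases from the start, on the sense strand. Capitals mark the first run of at least 5 pyrimidines that begins no more than 5 bases before the start or after it, and the letters TATAA where they begin 20 to 40 bases upstream. The windows lie in GRCh38.p14 for GAS5 at chr1:173868996-173869085 (minus strand), SNHG1 at chr11:62855836-62855925 (minus strand), SNHG3 at chr1:28505903-28505992 (plus strand), SNHG5 at chr6:85678684-85678773 (minus strand), SNHG7 at chr9:136728135-136728224 (minus strand), SNHG8 at chr4:118278722-118278811 (plus strand), SNHG12 at chr1:28581824-28581913 (minus strand) and ZFAS1 at chr20:49278602-49278691 (plus strand).
GAS5: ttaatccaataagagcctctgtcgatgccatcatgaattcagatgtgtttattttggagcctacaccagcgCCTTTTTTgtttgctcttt
SNHG1: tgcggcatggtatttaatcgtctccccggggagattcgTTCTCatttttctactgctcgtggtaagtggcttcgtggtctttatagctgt
SNHG3: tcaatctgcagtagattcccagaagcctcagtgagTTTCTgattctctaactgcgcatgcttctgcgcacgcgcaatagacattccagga
SNHG5: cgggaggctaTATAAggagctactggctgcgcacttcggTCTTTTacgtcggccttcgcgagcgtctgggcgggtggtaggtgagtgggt
SNHG7: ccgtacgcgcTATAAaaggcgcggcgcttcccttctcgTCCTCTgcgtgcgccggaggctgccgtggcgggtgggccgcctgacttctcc
SNHG8: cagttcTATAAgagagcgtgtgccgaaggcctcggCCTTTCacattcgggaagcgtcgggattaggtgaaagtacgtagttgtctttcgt
SNHG12: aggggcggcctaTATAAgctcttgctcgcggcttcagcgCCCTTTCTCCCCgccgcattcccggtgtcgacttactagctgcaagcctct
ZFAS1: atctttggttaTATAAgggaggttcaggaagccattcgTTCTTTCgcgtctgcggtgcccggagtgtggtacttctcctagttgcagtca

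A C followed by 4 pyrimidines, starting within 5 bases of the annotated start, was present in 5 of the 8 genes, SNHG5, SNHG7, SNHG8, SNHG12 and ZFAS1, against 21.1% of the 35116 promoters in the same table. The same 5 genes held TATAA, 28 to 34 bases upstream, which was found at that distance in 3.91% of all promoters, and both features together were found in 0.832%. The longest run was that of SNHG12, with 12 pyrimidines. GAS5, SNHG1 and SNHG3 had neither feature at the start RefSeq gives, and in GAS5 the first run, of 8 pyrimidines, begins at base 32 of the annotated transcript. Both patterns were read on the sense strand only, do not overlap each other, and were chosen after the sequences had been seen. A match describes these letters and is not evidence of a used start.

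Under SAL, 5 of the 10 host genes were down-regulated and 0 were up-regulated, while 9.37% of the 16835 genes tested were down-regulated and 11.5% up-regulated. The down-regulated genes were SNHG1, SNHG3, SNHG12, SNHG15 and GAS5, with SAL levels between 65.4% and 79.1% of the DMSO level in the fit. Fitted changes were below 0 in all 10, and SNHG5, SNHG6, SNHG7, SNHG8 and ZFAS1 did not pass the test. The median log2 fold change was -0.36 over the 10 genes and -0.0011 over all genes tested. The test was edgeR's quasi-likelihood test on raw counts with the replicate number as a block, and a gene with a Benjamini-Hochberg adjusted p under 0.05 over all genes tested was called a differentially expressed gene (DEG). Of the 10 genes, 0 had an unadjusted p under 0.05 in the upward direction. DESeq2 with the same block called 2 down-regulated and 0 up-regulated, beside 842 and 1350 of the 34388 genes it fitted. Every host gene passed the filter on low counts, the lowest count of any of them in a library being 41.

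The spread between replicate numbers was larger than the effect of SAL. Levels are given as CPM, counts scaled by the library total after TMM adjustment, and the groups overlapped for all 10 genes. The replicate number took from 70.1% (SNHG7) to 99.8% (ZFAS1) of the sum of squares of a gene's log2 CPM over the 6 libraries, and the treatment took at most 17.2% (SNHG15). Neither the overlap nor these shares were computed over all genes tested, so they are not shown to be particular to the host genes. The calls therefore rest on the differences within pairs of the same number. Over all 16835 genes tested, the fit without the block called 3 down-regulated and 18 up-regulated. Without the block the same test called 0 of the 10, with 0 at an unadjusted p under 0.05 and an adjusted p of 1.00 for each of the 5 DEGs.

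**Figure D1:**
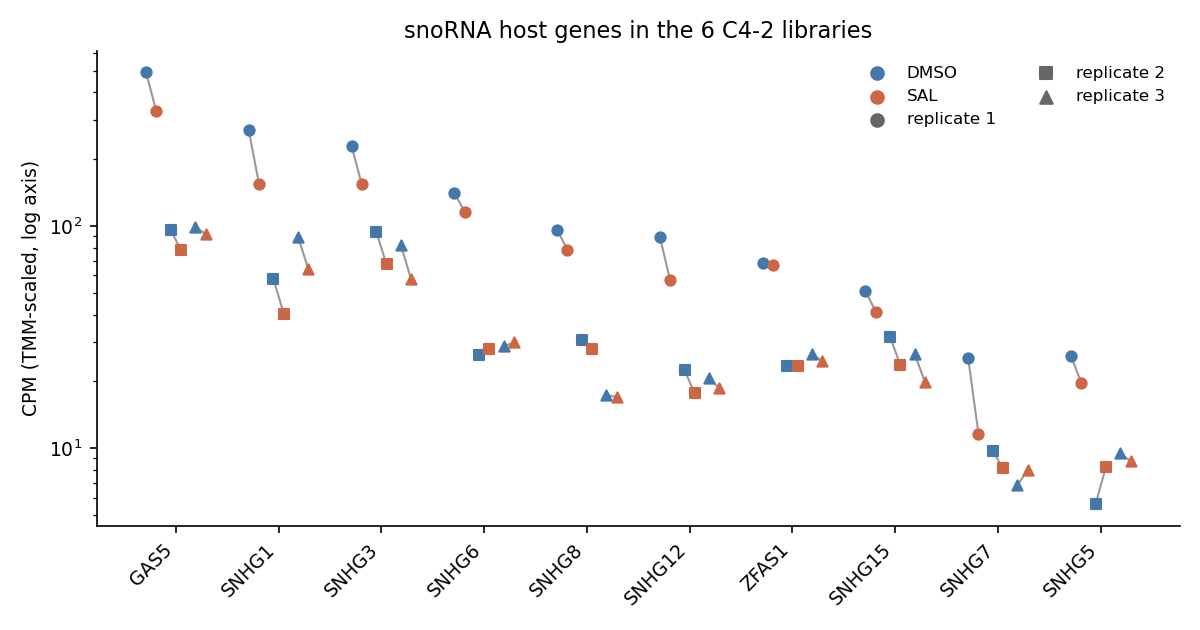
CPM on a log axis for each host gene in each library, ordered by the DMSO mean. Blue is DMSO, orange is SAL, symbols give the replicate number and grey lines join libraries of the same number; replicate 1 lies above the other replicates for every gene in both groups.

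SNHG1, host of a cluster of C/D box snoRNAs and first described as U22 host gene, had the largest fitted fall of the 10 genes. Its DMSO libraries held 270, 57.7 and 89.5 CPM in replicates 1, 2 and 3, and its SAL libraries held 154, 40.3 and 63.8 CPM. Each SAL library was below the DMSO library of its number, while replicate 1 of SAL was above replicates 2 and 3 of DMSO. The differences within pairs were -0.81, -0.51 and -0.49 in log2 CPM, and the fit gave a log2 fold change of -0.61 with a 95% interval from -0.83 to -0.40 (standard error 0.10, adjusted p = 0.000443 by edgeR). The gene lies on the minus strand at chr11:62619450-62623425 in GRCh37.

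SNHG3, host of the H/ACA box snoRNAs SNORA73A and SNORA73B, which act in 18S rRNA processing, changed most evenly between pairs. DMSO gave 229, 94.3 and 82.0 CPM and SAL gave 154, 67.3 and 57.5 CPM. The differences within pairs were -0.57, -0.49 and -0.51. Fitted over the pairs, the log2 fold change reached -0.53 ± 0.09 (standard error; adjusted p = 0.000811 by edgeR). SNHG3 kept its call by DESeq2 but not without replicate 3, where its adjusted p was 0.0681 by edgeR. The gene lies on the plus strand at chr1:28832492-28837404.

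SNHG12, on the same chromosome at chr1:28905050-28909644 on the minus strand, hosts both H/ACA and C/D box snoRNAs. Its level was 89.5, 22.4 and 20.7 CPM in DMSO and 57.0, 17.7 and 18.6 CPM in SAL. Differences of -0.65, -0.34 and -0.15 gave a fitted log2 value of -0.42 ± 0.13 (standard error; adjusted p = 0.0285 by edgeR). All pairs were lower, the first by the most. SNHG12 was not called without replicate 1 (adjusted p = 0.300 by edgeR), without replicate 3 (adjusted p = 0.0953) or by DESeq2 (adjusted p = 0.176).

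SNHG15, which lies at chr7:45022618-45026560 on the minus strand and hosts SNORA9, was the host with the smallest excess in replicate 1 among the 10. DMSO replicates had 51.3, 31.7 and 26.6 CPM and SAL replicates had 41.1, 23.7 and 19.8 CPM. Pair 1 differed by -0.32 and pairs 2 and 3 by -0.42 each, with a fitted log2 value of -0.38 ± 0.12 (standard error; adjusted p = 0.0278 by edgeR). Its difference, unlike that of the other 4 DEGs, was smallest in pair 1. SNHG15 kept its call without replicate 1, but not without replicate 2 (adjusted p = 0.0663 by edgeR), without replicate 3 (adjusted p = 0.254) or by DESeq2 (adjusted p = 0.186).

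GAS5, at chr1:173827697-173838020 on the minus strand, was the most abundant of the 10 per length. In DMSO it was at 492, 96.1 and 99.3 CPM and in SAL at 330, 78.1 and 92.0 CPM. Its raw counts were 3973 in DMSO replicate 1 and 2574 in SAL replicate 1, but 703 and 712 in replicate 2 and 743 and 747 in replicate 3, where the SAL libraries are the deeper ones. Differences within pairs were -0.58, -0.30 and -0.11, and the fitted log2 value was -0.34 ± 0.10 (standard error; adjusted p = 0.0313 by edgeR). GAS5 lost its call when any single replicate number was left out, with an edgeR adjusted p of 0.165 without replicate 1, 0.0508 without replicate 2 and 0.155 without replicate 3. DESeq2 gave an adjusted p of 0.0832.

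Among the genes that did not pass the test, SNHG7 had the widest interval. It hosts H/ACA box snoRNAs and was at 25.5, 9.71 and 6.81 CPM in DMSO and 11.7, 8.11 and 8.01 CPM in SAL. The pairs differed by -1.11, -0.25 and 0.23, so pair 3 went the other way. Its log2 fold change of -0.47 (95% interval -0.97 to 0.04, adjusted p = 0.191 by edgeR) moved with the replicates used, and was -0.028 without replicate 1 and -0.73 without replicate 3.

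SNHG8, host of SNORA24, was at 96.1, 30.6 and 17.4 CPM in DMSO and 78.4, 28.0 and 17.0 CPM in SAL. All 3 pairs were lower, with differences of -0.29, -0.13 and -0.03, and the fitted value was -0.17 (95% interval -0.41 to 0.07, adjusted p = 0.320 by edgeR). SNHG6, host of SNORD87, was at 142, 26.4 and 28.7 CPM in DMSO and 116, 28.1 and 29.9 CPM in SAL, so only pair 1 was lower. The fitted value of SNHG6 was -0.07 (95% interval -0.31 to 0.16, adjusted p = 0.706 by edgeR).

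SNHG5, host of SNORD50A and SNORD50B, was at 26.1, 5.61 and 9.49 CPM in DMSO and at 19.7, 8.22 and 8.75 CPM in SAL. Pair 2 was higher in SAL by 0.53 and the other pairs differed by -0.40 and -0.11. The interval of its log2 fold change ran from -0.48 to 0.35 around -0.06 (adjusted p = 0.860 by edgeR), which includes the size of change seen in SNHG12, SNHG15 and GAS5. ZFAS1, host of the SNORD12 family, had the fitted change nearest to 0. It was at 68.4, 23.4 and 26.6 CPM in DMSO and 66.8, 23.6 and 24.6 CPM in SAL, with a log2 fold change of -0.04 (95% interval -0.28 to 0.19, adjusted p = 0.833 by edgeR).

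**Figure D2:**
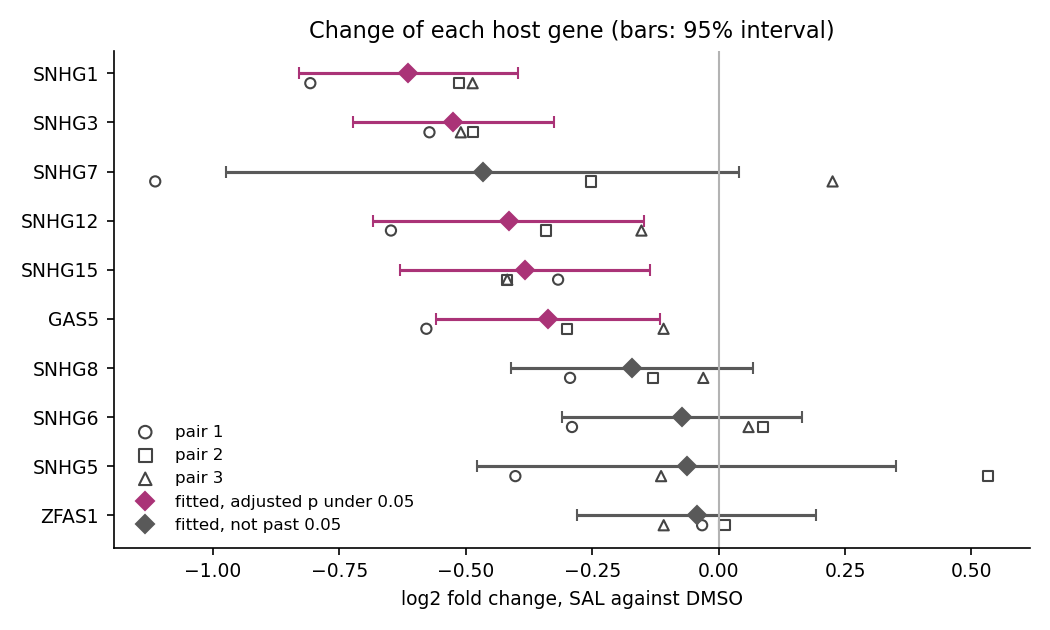
Fitted log2 fold change of SAL against DMSO (diamonds, with 95% intervals as bars) and the difference within each pair in log2 CPM (open symbols) for the host genes, in order of the fitted value. Purple marks the 5 DEGs; SNHG1 and SNHG3 have all 3 pairs at or below -0.49, while SNHG7 ranges from -1.11 to 0.23 between pairs.

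In all 3 pairs, 6 of the 10 host genes were lower in SAL, the 5 DEGs and SNHG8, against 25.3% of all genes tested. The difference of pair 1 was the lowest of the pairs in 8 of the 10 genes, all but SNHG15 and ZFAS1, and in 34.1% of all genes tested. Without replicate 1, SNHG1, SNHG3 and SNHG15 kept their call, GAS5 and SNHG12 did not, and the median log2 fold change of the 10 was -0.15. SNHG1 was called in every setting tried except the fit without the block. Both features at the start RefSeq gives, the tract and TATAA, were held by 1 of the 4 DEGs whose start is printed, SNHG12, and by all 4 other genes printed. GAS5, named above among transcripts that begin with a TOP tract, counts here as without one, because only the start RefSeq gives was read. These patterns were chosen after the sequences had been seen, and the split was not tested.

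For a comparison of levels between genes, they were taken per length, as DMSO mean CPM per kb of the canonical transcript. On this scale GAS5 was highest at 298, followed by SNHG1 at 120, SNHG3 at 61.4, SNHG6 at 36.0 and SNHG12 at 23.6. SNHG15 at 12.2, SNHG5 at 10.4, ZFAS1 at 8.72, SNHG8 at 7.79 and SNHG7 at 5.95 made up the lower part of the order. Of the 9 pairs of neighbours in this order, 5 kept it in each of the 3 DMSO libraries, from GAS5 down to SNHG15. The 4 pairs from SNHG15 down to SNHG7 did not. No pair of neighbours differed in the mean by more than the larger of their SDs over the DMSO libraries, which hold the spread between replicate numbers. The first 6 places were the same per kb of all annotated exons, where GAS5 was at 46.5 and SNHG5, last, at 1.09, and the annotated exons of GAS5 add up to 4932 bases against 768 in its canonical transcript, and those of SNHG5 to 12604 against 1316.

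Replicate 1 stood apart for every host gene. In DMSO its level was between 1.76-fold (SNHG15) and 5.11-fold (SNHG6) that of replicates 2 and 3, and in SAL between 1.43-fold (SNHG7) and 3.97-fold (SNHG6). Over both groups the median excess of the 10 genes was 3.08-fold, while the median over all genes tested was 0.984-fold. Of all genes tested, 14.5% had an excess at least as large as that of SNHG15, the lowest of the 10, and 3.01% at least as large as the median of the 10. Together the 10 genes took 0.147% of the counts without rRNA in DMSO replicate 1 and 0.0990% in SAL replicate 1, against 0.0301% to 0.0440% in the other 4 libraries.

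**Figure D3:**
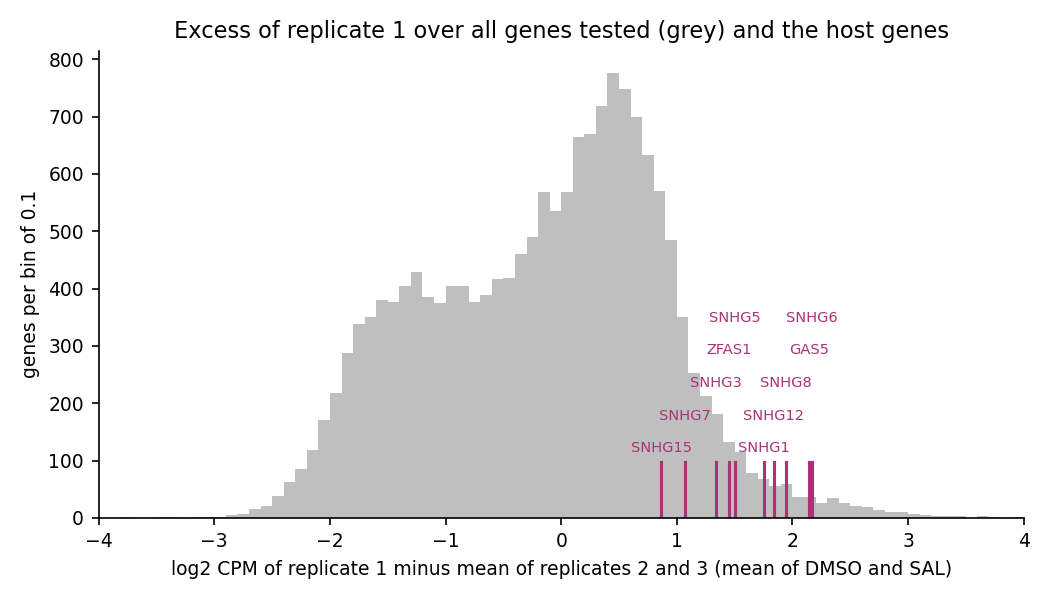
Histogram over all genes tested of log2 CPM in replicate 1 minus the mean of replicates 2 and 3, averaged over DMSO and SAL (grey, bins of 0.1), with the host genes as purple lines. The genes tested centre near 0 and the 10 host genes lie between 0.87 and 2.17.

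Other properties of the libraries moved with the replicate number. Counts on annotated snoRNA, snRNA and other small RNA genes made up 10.3% and 8.87% of the counts without rRNA in replicate 1 of DMSO and SAL, and 1.42% to 5.52% in the other libraries. rRNA genes took 27.7% and 27.8% of the gene counts in replicate 1 and 11.9% to 22.0% elsewhere, and their share was higher in SAL than in DMSO in each of the 3 pairs, by the least in pair 1. In total, 6931042 to 9776990 counts per library were left without rRNA. The part of these shares in the host genes' levels was not tested. Removing the small RNA genes before the library sizes were computed left the same 5 DEGs.

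RefSeq annotates 36 snoRNAs within the 10 host genes, 11 in GAS5, 9 in SNHG1, 4 in SNHG12, 3 in ZFAS1, 2 each in SNHG3, SNHG5 and SNHG7, and 1 each in SNHG6, SNHG8 and SNHG15. In the count files 24 of them had a row. For 12 of these rows the symbol names a single locus in the annotation used here. The other rows carry a symbol that names several loci or has no locus in the annotation used here, and they cannot be assigned to a host. Of the 12, the rows of SNORD79 and SNORD44 (GAS5 in RefSeq), SNORD31, SNORD30 and SNORD29 (SNHG1) and SNORA44 (SNHG12) were at 0 in all 6 libraries. The GENCODE annotation used here places none of these, nor SNORD22, within its host on the host's strand. It places 0 snoRNAs in SNHG1, and only SNORD78 in GAS5 and SNORD99 in SNHG12. These zeros are therefore not shown to belong to the hosts. A 0 allows up to 3 counts, or 0.329 to 0.410 CPM, in a library by counting error alone. Reads on bases shared with a host exon can be ambiguous between the genes, and this limit does not cover them. Annotated exons of SNHG1 add up to 3976 bases and cover the whole gene. The part of such reads in the zeros was not tested. SNORD22, within SNHG1 in RefSeq, had between 0 and 7 counts and was not tested. The remaining 5 passed the filter, and their sequences are shown with the letters of the conserved boxes in capitals, TGATGA for the C box and CTGA for the D box of SNORD genes and ACA near the 3′ end for SNORA73B. SNORD99 holds no exact TGATGA near its 5′ end. Positions are in GRCh37, with SNORD99 at chr1:28905261-28905334 (minus strand), SNORA73B at chr1:28835071-28835274 (plus strand), SNORD12C at chr20:47895477-47895565 (plus strand), SNORD12B at chr20:47896856-47896946 (plus strand) and SNORD12 at chr20:47897220-47897309 (plus strand).
SNORD99: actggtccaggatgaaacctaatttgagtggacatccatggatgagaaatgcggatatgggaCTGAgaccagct
SNORA73B: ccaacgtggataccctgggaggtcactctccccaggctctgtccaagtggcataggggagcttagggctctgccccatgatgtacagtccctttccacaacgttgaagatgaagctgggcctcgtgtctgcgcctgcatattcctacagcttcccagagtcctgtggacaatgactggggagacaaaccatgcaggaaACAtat
SNORD12C: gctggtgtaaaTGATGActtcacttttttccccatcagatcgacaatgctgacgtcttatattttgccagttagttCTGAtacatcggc
SNORD12B: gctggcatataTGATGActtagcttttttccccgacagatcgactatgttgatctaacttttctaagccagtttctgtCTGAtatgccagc
SNORD12: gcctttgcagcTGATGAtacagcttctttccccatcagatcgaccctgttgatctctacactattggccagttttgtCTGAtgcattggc

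None of these 5 snoRNAs was called by edgeR or by DESeq2, and 1 of the 5, SNORD12, had an unadjusted p under 0.05. SNORA73B, with the most counts, had 1286, 267 and 102 counts in DMSO and 823, 294 and 160 in SAL. Its pairs differed by -0.59, -0.18 and 0.52, against -0.57, -0.49 and -0.51 for its host SNHG3, and its log2 fold change was -0.18 (95% interval -0.60 to 0.25, adjusted p = 0.562 by edgeR). The near-identical SNORA73A lies in the same host, and how reads were shared between them is uncertain.

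SNORD99, within SNHG12, had 76, 18 and 7 counts in DMSO and 39, 14 and 9 in SAL. Its log2 fold change was -0.65 (95% interval -1.32 to 0.01, adjusted p = 0.160 by edgeR), and that of its host was -0.42. Pair 3 was lower in the host and higher in the snoRNA. The difference between a host and its snoRNA was not tested.

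The 3 snoRNAs of ZFAS1, the host with the smallest fitted change, had fitted values below 0. SNORD12 had 50, 13 and 4 counts in DMSO and 26, 6 and 3 in SAL, with a fitted log2 value of -0.98 ± 0.38 (standard error; unadjusted p = 0.0202, adjusted p = 0.0810 by edgeR), and all 3 pairs were lower. SNORD12B, with 219, 53 and 56 counts in DMSO and 136, 16 and 76 in SAL, was at -0.61 (adjusted p = 0.300 by edgeR). SNORD12C, with 106, 19 and 15 counts against 82, 12 and 19, was at -0.33 (adjusted p = 0.424 by edgeR). Annotated exons of other ZFAS1 transcripts cover 90 of the 90 bases of SNORD12 and 88 of the 91 bases of SNORD12B, so reads there can be ambiguous between the genes. Replicate 1 was high for all 5 snoRNAs too, at 3.60-fold to 7.06-fold the other replicates in DMSO and 3.37-fold to 5.34-fold in SAL.

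**Figure D4:**
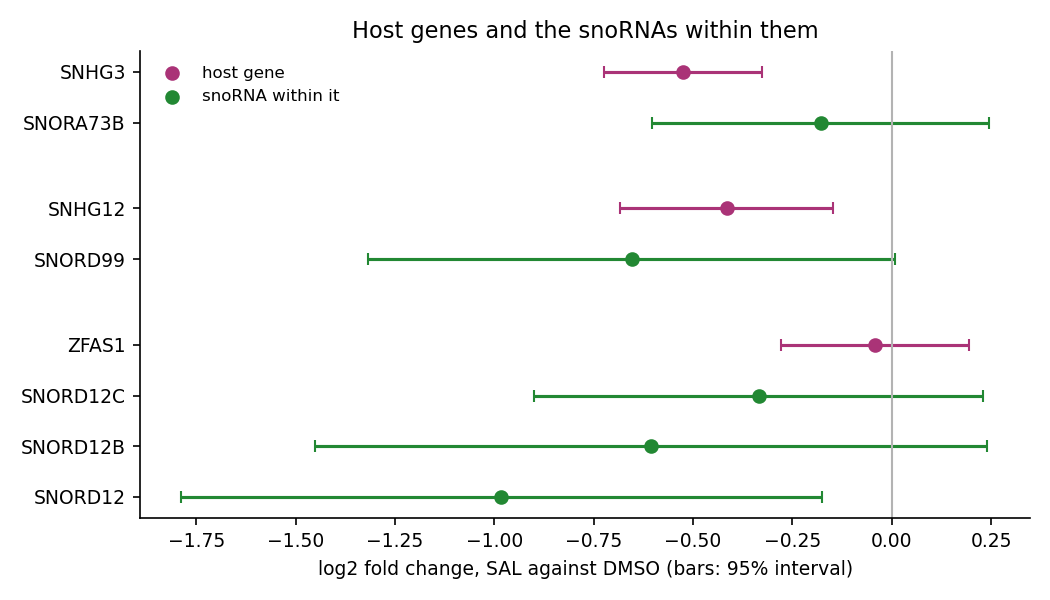
Fitted log2 fold change of SAL against DMSO with 95% intervals for SNHG3, SNHG12 and ZFAS1 (purple) and for the snoRNAs within them that were tested (green). The intervals of SNORA73B, SNORD99, SNORD12B and SNORD12C include 0, and that of SNORD12 does not, although its adjusted p was 0.0810.

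Genes whose start lies near that of a host were read from the same fit. Distances are between the outermost annotated starts. For GAS5 that is base 173838020 of chr1, while its canonical transcript starts at base 173837127, from which no distance was taken. SLC3A2, the heavy chain of amino acid transporters, starts 51 bp from SNHG1 on the opposite strand and was also down-regulated, at a fitted log2 value of -0.46 ± 0.10 (standard error; adjusted p = 0.00317 by edgeR). It was at 136, 170 and 117 CPM in DMSO and 99.4, 137 and 76.1 CPM in SAL, with no excess in replicate 1 of the kind seen in SNHG1. RCC1, a chromatin-bound exchange factor for the GTPase Ran, starts 37 bp from SNHG3 on the same strand and fell by 0.51 on the log2 scale (adjusted p = 0.00144 by edgeR). RCC1 was lowest in replicate 1, at 43.4, 126 and 102 CPM in DMSO and 32.9, 88.8 and 66.9 CPM in SAL, the reverse of SNHG3. On the strand opposite to their hosts, ZBTB37, 800 bp from GAS5, was at 0.09 (adjusted p = 0.559 by edgeR), and ZNFX1, 248 bp from ZFAS1, was at 0.09 (adjusted p = 0.541 by edgeR). The pairs of starts therefore hold 2 hosts whose neighbour was also down-regulated, SNHG1 and SNHG3, and 2 whose neighbour was not called.

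The counting ignored strand, so reads in exons that overlap cannot be assigned. In the annotation, SNHG3 shares 242 exon bases with RCC1, GAS5 shares 132 with GAS5-AS1, and SNHG12 shares 8 with TRNAU1AP. A longer overlap is that of SNHG8 with PRSS12, 2487 bases. PRSS12 was down-regulated at low counts, with 69, 40 and 44 in DMSO and 32, 16 and 29 in SAL (log2 fold change -1.10, adjusted p = 0.00594 by edgeR). How much of the hosts' counts comes from these neighbours was not tested.

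Other noncoding snoRNA hosts were listed by name, 18 in all, of which 12 had a row and 10 were tested. All 10 had fitted values below 0, their median being -0.31, and 4 were down-regulated and 0 up-regulated (2 and 0 by DESeq2, and 3 and 0 without replicate 1). SNHG17 went from 43.5, 38.1 and 43.2 CPM in DMSO to 32.1, 29.8 and 26.2 CPM in SAL, a log2 fold change of -0.50 (adjusted p = 0.00657 by edgeR). SNHG16 was at -0.41 (adjusted p = 0.00660 by edgeR) and C6orf48, also known as SNHG32, at -0.44 (adjusted p = 0.0253 by edgeR). The median excess of replicate 1 in this list was 1.95-fold.

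Protein-coding hosts were split by function. Of 25 ribosomal protein genes that host snoRNAs, 4 were down-regulated, 1 was up-regulated and 20 were not called, with a median of -0.10. Without replicate 1, 3 were down-regulated and 5 up-regulated. In that fit 1955 of the 16735 genes tested were down-regulated and 2443 up-regulated, so the list is not set apart by this. DESeq2 called 2 down-regulated and 1 up-regulated. RPL5 (-0.34, adjusted p = 0.0157), RPL10 (-0.37, adjusted p = 0.0198) and RPS3 (-0.34, adjusted p = 0.0198) were down-regulated by edgeR, and RPL23 (0.35, adjusted p = 0.0316) was up-regulated. Replicate 1 had a median excess of 2.13-fold over these genes, the nearest to that of the 10 hosts among the lists. Of 23 other protein-coding hosts, 5 were down-regulated and 1 was up-regulated, with a median of -0.25 (2 and 1 by DESeq2). RCC1, the splicing factor SF3B3 (-0.49, adjusted p = 0.00487) and the mitochondrial translation factor PTCD3 (-0.30, adjusted p = 0.0352) were down-regulated by edgeR, and TPT1, which encodes the translationally controlled tumour protein, rose by 0.46 (adjusted p = 0.00164).

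Proteins that bind or assemble snoRNAs were measured for 19 genes, of which 3 were down-regulated and 0 up-regulated, with a median of -0.15 (DESeq2 called 2 down-regulated and 0 up-regulated). FBL, the methyltransferase of C/D box particles, was at -0.49 (adjusted p = 0.00841 by edgeR), NOP58, a core protein of the same particles, at -0.40 (adjusted p = 0.00716) and DKC1, the pseudouridine synthase of H/ACA particles and itself a snoRNA host, at -0.29 (adjusted p = 0.0482). Without replicate 1, 2 of the 19 were down-regulated and 2 up-regulated, beside 1955 and 2443 of all 16735 genes tested in that fit. Nonsense-mediated decay factors, which act on the spliced host transcripts, numbered 19, with 1 down-regulated, 1 up-regulated and a median of -0.05. EIF4A3, a core of the exon junction complex, was at -0.29 (adjusted p = 0.0399 by edgeR) and GSPT1, a translation termination factor, at 0.34 (adjusted p = 0.0151). With DESeq2, and also without replicate 1, 0 of the 19 were down-regulated and 1 up-regulated, so that EIF4A3 was no longer called. Of 14 other TOP genes tested, 1 was down-regulated and 0 up-regulated, with a median of -0.16 (1 and 0 by DESeq2, and 2 and 1 without replicate 1). That gene was NAP1L1, a histone chaperone, at -1.21 (adjusted p = 2.72e-07 by edgeR).

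**Figure D5:**
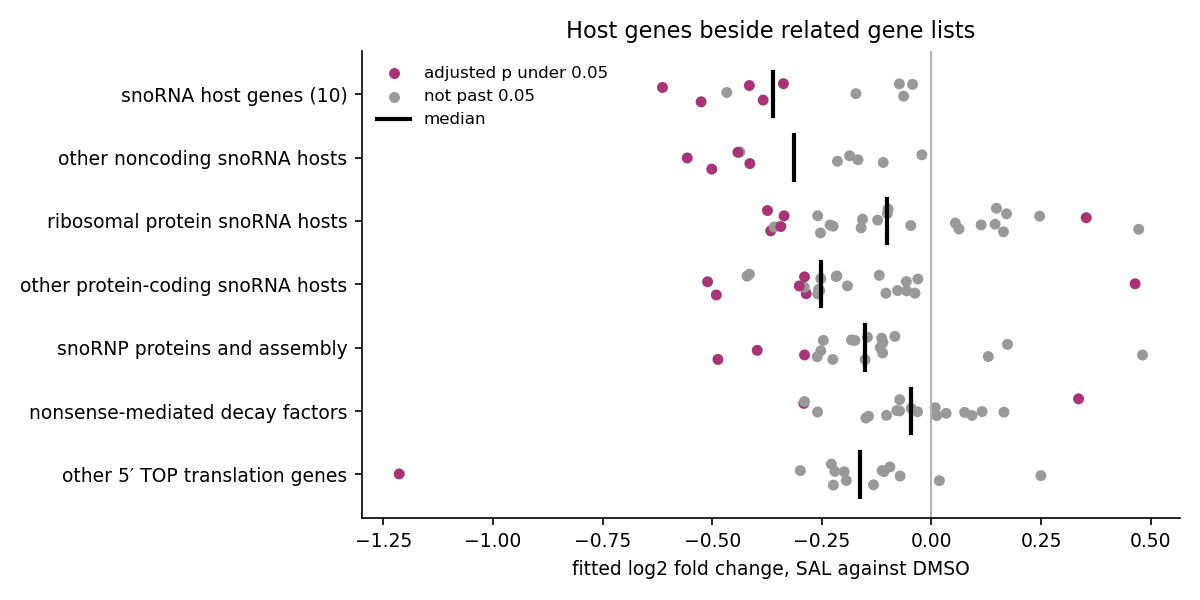
Fitted log2 fold change of SAL against DMSO for the genes of each list, with purple points for DEGs and black lines for medians. The medians are -0.36 for the 10 host genes, -0.31 for other noncoding hosts, -0.10 for ribosomal protein hosts and -0.05 for nonsense-mediated decay factors.

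Markers of proliferation and of cell type were read beside these results. All 11 proliferation markers tested were down-regulated, with a median of -0.69, among them TOP2A (-1.02, adjusted p = 1.57e-06 by edgeR), CCNB1 (-0.80, adjusted p = 1.54e-05) and MCM4 (-0.77, adjusted p = 2.00e-05). Their part in the change of the host genes was not tested. Of 9 luminal prostate markers, 6 were up-regulated and 0 down-regulated, KRT8 and TMPRSS2 among them. Their summed level ran from 2735 to 5225 CPM in DMSO and from 5006 to 10253 CPM in SAL, and was lowest in replicate 1 of the SAL libraries and of the DMSO libraries. Of 9 markers of other cell types, 8 had a row and 3 were tested, with none called by edgeR or DESeq2 and 0 at an unadjusted p under 0.05. KRT5, PTPRC and COL1A2 were at 0 in every library, and the summed level of the list was 4.21 to 14.2 CPM.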

How the data were processed

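RNA-seq of 6 C4-2 libraries was used. LNCaP libraries were not used here. Before deposit, the authors removed the first bases and low-quality ends of the reads with the FASTX toolkit, aligned read 1 only to hg19 by tophat 2.1.0 with bowtie, and counted reads on exons with htseq-count 0.11.2 without regard to strand and with the gencode v19 annotation. The values deposited by the authors are raw counts, 1 row per symbol, with no normalization. The summary lines at the end of each file stayed out of library sizes. Reads in no feature made up 26.7% to 51.1% of gene, ambiguous and no-feature reads together, and ambiguous reads 2.49% to 2.88% of gene and ambiguous reads.

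From the counts, 523 rRNA symbols were removed, filterByExpr left 16835 of 55765 symbols, and counts were scaled by TMM and tested with edgeR 4.0.16 in R 4.3.3 (quasi-likelihood, robust, replicate block, Benjamini-Hochberg over all genes tested). A standard error is the size of the log2 fold change over the square root of F. Differences within pairs are in log2 CPM with a prior count of 2. DESeq2 1.42.0 was an alternative, beside other size factors, filters, gene classes removed, thresholds and replicates left out. The block follows the paired test of the study. Same-numbered libraries deviated together from their group means, with correlations of 0.89, 0.86 and 0.74. The fit was also run on simulated counts as a check of the code, which is no support for the calls above.

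The members and lists were chosen with earlier results of these data known. The named genes are the 10 hosts, their snoRNAs of 1 locus, the gene whose start is nearest within 5000 bp of each host's start, and of each other list the 3 DEGs with the smallest adjusted p in each direction. Genes whose exons overlap a host, and KRT5, PTPRC and COL1A2, are named besides, and some genes that the rule or the overlaps give are not reported here. Gene positions are from GRCh37 with GENCODE v44 lifted to it, newer than the annotation the authors used, and RefSeq on GRCh38.p14 gave the starts and which snoRNAs lie in which host.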

Additional observations from a re-analysis of the deposited data

How the results depend on the processing

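The count of 5 down-regulated and 0 up-regulated host genes, and the same 5 genes, were kept with no filter, DESeq2 size factors in edgeR, removal of small RNA genes or of mitochondrial genes, a minimum of 10 counts per library, rRNA genes retained, and no robust estimation. With DESeq2 and the block 2 were down-regulated, SNHG1 and SNHG3, beside 842 down-regulated and 1350 up-regulated of the 34388 genes fitted. At an adjusted p under 0.01 with edgeR the same 2 were down-regulated. At that threshold 876 of the 16835 genes tested were down-regulated and 1234 up-regulated. Without the replicate block 0 host genes were down-regulated, where 3 genes in all were down-regulated and 18 up-regulated. Leaving out each replicate number in turn left 1 to 3, the lowest count being that without replicate 3 (SNHG1 alone, with SNHG3 at an adjusted p of 0.0681 by edgeR), and each of the 3 replicate numbers lowered the count by over 1.5 times. Over the replicate numbers left out, the median log2 fold change ran from -0.41 (replicate 3) to -0.15 (replicate 1), and it was -0.42 without the block. Without replicate 1 the fitted values of SNHG5 and SNHG6 changed sign, neither past the threshold, and over the numbers left out they ranged from -0.31 to 0.19 and from -0.17 to 0.074. SNHG7 ranged from -0.73 without replicate 3 to -0.028 without replicate 1, where GAS5 was at -0.20 and SNHG12 at -0.25. Over the 10 genes and 12 settings of the fit, 102 of 120 values kept direction and side of the threshold, 16 kept the direction and lost the call, and 2 changed sign. All 16 lost calls were of the 5 DEGs, with DESeq2, without the block or with a replicate number left out. Genes not called in the main fit had no call to lose, so the 102 are no measure of how stable the calls are. The cause of these changes was not tested. Across all genes, leaving out a replicate number gave from 483 down-regulated and 750 up-regulated genes (replicate 3) to 1955 and 2443 (replicate 1), and DESeq2 gave 842 and 1350. The use of 3 pairs and the counts under 100 of SNHG5, SNHG7, SNORD99, SNORD12, SNORD12B and SNORD12C in some libraries limit what could be detected.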
